A study of Mus musculus with 8 samples.

Results

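The genes described here encode the enzymes of cholesterol and fatty acid synthesis together with the regulators that sense sterols. They were taken from a list of 33 symbols matched exactly to the gene column of the expression table, and all 33 were among the 24339 genes listed. Each was measured by RNA sequencing in 8 libraries of cultured peritoneal macrophages, phagocytes washed from the abdomen. The C57BL/6 donors had the wild type (WT) or the α7nAChR-/- genotype (KO), which removes the nicotinic receptor subunit encoded by Chrna7. Plated cells of each genotype received nicotine at 10 µM or its vehicle for 15 minutes, and then vehicle or 100 ng/ml of bacterial lipopolysaccharide (LPS), which macrophages sense through Toll-like receptors, over 4 hours. The groups are called vehicle, nicotine, LPS and nicotine+LPS, and each genotype had 1 library of each. Every group shared the strain, the culture medium and the overnight plating, and the labels name no cell type to which the knockout is limited. Whether the libraries came from separate animals or preparations is not in the labels. Genotype therefore cannot be told apart from preparation, and all p-values rest on the spread among these 8 libraries, which may be technical.

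Cholesterol is made from acetyl-CoA through mevalonate, isoprenoid diphosphates, squalene and a series of sterol ring conversions. Fatty acids are made from the same acetyl-CoA by carboxylation, chain building, elongation and desaturation. Both routes are controlled by the SREBP transcription factors, which Scap escorts out of the endoplasmic reticulum when sterols are low and which Insig proteins hold there when sterols are high. Macrophages use these routes to supply membranes and lipid mediators, and their desaturases set the ratio of saturated to unsaturated fatty acids.

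The window before the gene start was read for sequence motifs tied to this control, because many of the enzymes are described as shared targets of SREBP. RefSeq promoter windows (GRCm38.p6) were found for 26 of the 33 genes, in 34 windows of 250 bases. Fdps, Fdft1, Sqle, Stard4, Scd1, Scd2 and Fads1 had no entry. The sterol regulatory element was searched as TCACNCCAC, the CCAAT box as CCAAT and the E-box as CACGTG, each on both strands, so that ATTGG is a CCAAT box on the other strand. The sterol regulatory element letters were in 1 of the 34 windows, that of Hmgcs1, and in 1.05% of the 32851 windows of all genes. CCAAT was in 21 of the 34 windows (61.8%) and in 33.8% of all windows. CACGTG was in 5 of the 34 windows (14.7%) and in 6.02% of all windows. A match is a description of the letters, and no match says only that the letters are not in the window. The next 4 stretches show a gene with the sterol element, a gene with several CCAAT boxes, the fatty acid synthase gene and a sensor gene with an E-box. They run 5′ to 3′ on the strand of the gene, with the motif matches in capitals. The Hmgcs1 stretch is chr13:119690101-119690350 on the + strand, the Mvk stretch chr5:114444069-114444268 on the + strand (the last 200 bases before the start), the Fasn stretch chr11:120824548-120824797 on the - strand and the Insig1 stretch chr5:28071162-28071361 on the + strand (250 to 51 bases before the start).
Hmgcs1: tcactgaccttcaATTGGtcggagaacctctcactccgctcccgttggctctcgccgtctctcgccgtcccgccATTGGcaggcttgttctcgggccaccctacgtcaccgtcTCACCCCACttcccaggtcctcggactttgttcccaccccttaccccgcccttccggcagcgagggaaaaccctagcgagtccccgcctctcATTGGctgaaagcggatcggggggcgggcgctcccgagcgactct
Mvk: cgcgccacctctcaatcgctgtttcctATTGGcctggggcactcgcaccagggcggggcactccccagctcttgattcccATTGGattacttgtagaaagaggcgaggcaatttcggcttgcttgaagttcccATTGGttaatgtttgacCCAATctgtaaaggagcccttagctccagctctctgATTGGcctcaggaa
Fasn: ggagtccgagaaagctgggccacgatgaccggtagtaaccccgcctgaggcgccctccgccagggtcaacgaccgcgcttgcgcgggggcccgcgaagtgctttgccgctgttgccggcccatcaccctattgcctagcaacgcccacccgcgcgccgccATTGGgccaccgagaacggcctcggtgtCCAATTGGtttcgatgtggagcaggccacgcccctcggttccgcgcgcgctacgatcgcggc
Insig1: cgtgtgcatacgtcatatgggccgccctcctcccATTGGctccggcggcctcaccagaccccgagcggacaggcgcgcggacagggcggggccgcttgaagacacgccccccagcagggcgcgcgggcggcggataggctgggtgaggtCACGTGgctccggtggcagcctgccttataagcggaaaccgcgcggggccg
In the Hmgcs1 stretch the sterol element begins 137 bases before the gene start and lies between CCAAT boxes. The capitals of Mvk and Fasn are CCAAT boxes on either strand, 2 of which overlap in Fasn, and those of Insig1 are a CCAAT box and an E-box.

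Values are FPKM, fragments scaled by transcript length and library size, which allow levels to be set side by side between genes. The number of fragments behind each value is not known. The macrophage markers (8 of 8 at a mean of at least 1 FPKM) summed to 20441 to 34842 FPKM, and Chrna7 was listed at 0 in all 8 libraries, so it does not check the genotype labels. The summed FPKM of all genes ran from 413052 to 854016 and was highest in the WT LPS and KO LPS libraries. Gapdh, a glycolytic gene that cells of any type use, was listed at only 1.34 to 8.90 FPKM, so other low FPKM may be failed estimates too. The 5 resident peritoneal macrophage markers (4 at a mean of at least 1 FPKM) summed to 205, 219.8, 618 and 258 in WT vehicle, nicotine, LPS and nicotine+LPS and to 227, 233, 579.9 and 238 in KO. Prg4 (467 and 321 FPKM) and Timd4 (108 and 222 FPKM) made up most of the WT LPS and KO LPS sums. Of the others, Icam2 was higher in LPS than in vehicle in both genotypes, Gata6 only in KO, and Garnl3 in neither. The 6 mast cell markers summed to 207, 392, 281 and 751 in WT and 157, 299, 207 and 572 in KO in the same order, highest in the nicotine+LPS libraries. Neutrophil markers (3 of 5 at a mean of at least 1 FPKM, S100a9 and Ngp below) summed to 167, 82.8, 188 and 88.6 in WT and 190.2, 91.1, 259 and 113 in KO. Adipocyte markers, of interest because fat cells make lipid, summed to at most 0.12 FPKM, with Lep, Cidec and Cfd at 0 in every library. Over the 8 libraries B cell markers summed to 161 to 352 FPKM, T cell markers to 13.3 to 49.1, dendritic cell markers to 2.12 to 48.1, mesothelial or fibroblast markers to 0.821 to 13.0, eosinophil markers to 0.556 to 3.64 and NK cell markers to 0.213 to 2.43. Like the mast cell sum, 3 of these were highest in nicotine+LPS in both genotypes. In WT and KO nicotine+LPS they were 293 and 352 (B cell), 37.9 and 49.1 (T cell) and 48.1 and 22.3 (dendritic cell). One by one, all 6 mast cell markers were highest there in both genotypes. Of the B cell markers only Cd79a was, with Cd79b highest in vehicle and Ms4a1 and Pax5 in LPS. Of the dendritic cell markers only Xcr1 was (27.3 and 18.4 FPKM), and of the T cell markers Cd3d, Cd2 and Cd5. In bulk RNA, fewer cells of a type and less RNA per cell cannot be told apart.

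Among the 33 genes, Insig1 had the highest mean level at 88.6 FPKM (range 28.7 to 169.8). It was followed by Acly at 67.4, Msmo1 at 46.3, Srebf2 at 41.5 and Hmgcs1 at 31.9 FPKM, and the ranges of these neighbours overlapped. The lowest were Elovl6 at 0.316 and Fads2 at 0.802 FPKM. These 2 fell under the mean of 1 FPKM asked for testing, which left 31 of the 33 genes among 10447 tested. A heat map of all 33 genes shows Dhcr7, Scd2 and Fads1 each at their darkest blue in the LPS libraries without nicotine.

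**Figure D1:**
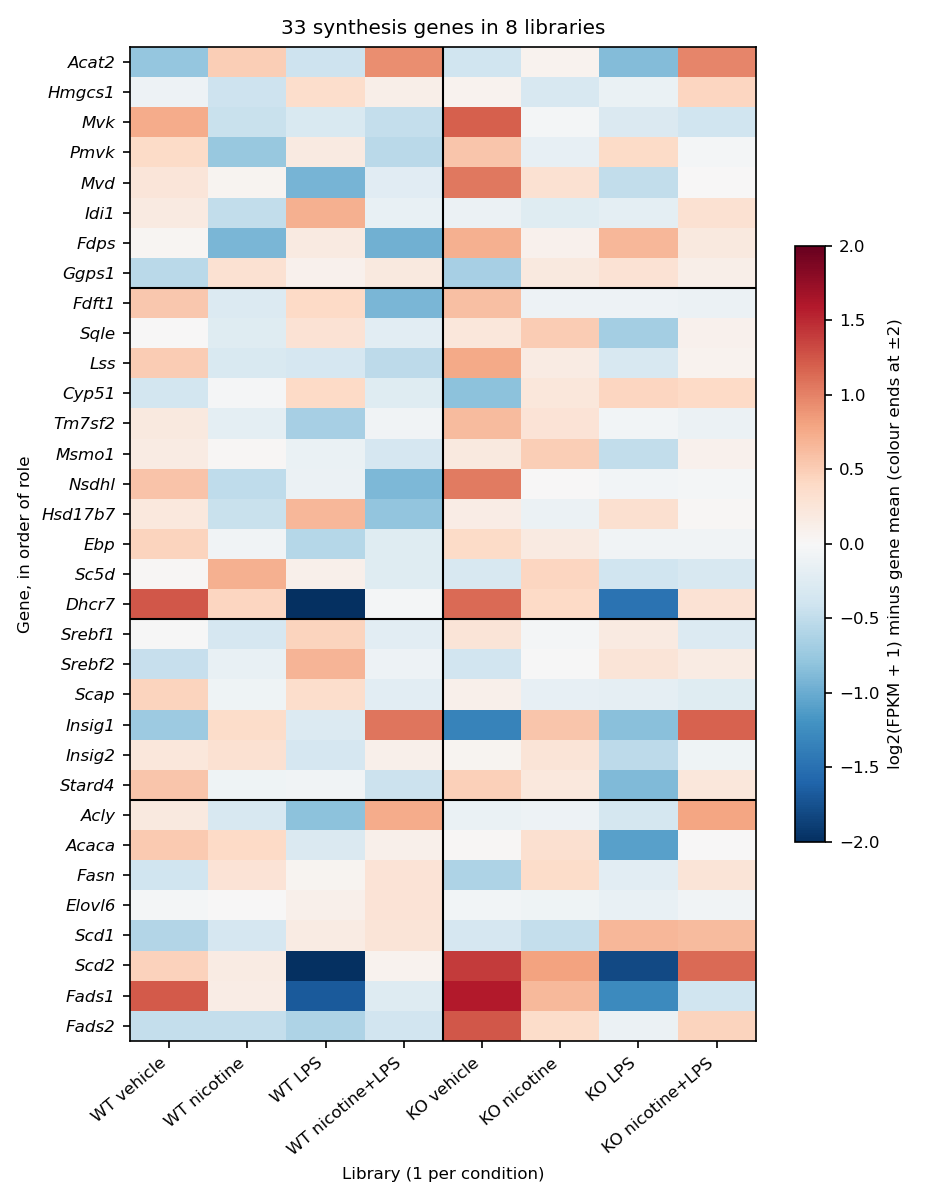
Heat map of 33 genes (rows, grouped by role with black lines between roles) in 8 libraries (columns, WT left and KO right of the black line), coloured by log2(FPKM + 1) minus the mean of the gene. Dhcr7, Scd2 and Fads1 are lowest in the WT LPS and KO LPS columns, and Insig1 is highest in both nicotine+LPS columns.

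Insig1, which holds the SREBP complex back, rose with nicotine by a log2 difference of 1.59 ± 0.19 (SE), and Acat2, at the start of the mevalonate route, by 1.23 ± 0.22. Pmvk and Fdps, further along that route, fell with nicotine by differences of -0.75 ± 0.15 and -0.80 ± 0.16. Scd1, a desaturase gene, rose with LPS by 0.87 ± 0.15. Scd2, Dhcr7 and Fads1 were lowest with LPS alone, and their nicotine difference was greater with LPS than without by 3.06 ± 0.27, 2.63 ± 0.27 and 2.17 ± 0.27. On GRCm38 in the GENCODE annotation, Insig1 lies at chr5:28071363-28078662, Acat2 at chr17:12942890-12960747, Pmvk at chr3:89454541-89469013 and Fdps at chr3:89093588-89101959. Dhcr7 lies at chr7:143823145-143848410, and the desaturase genes Scd1 (chr19:44394455-44407879), Scd2 (chr19:44293674-44306864) and Fads1 (chr19:10182888-10196877) are all on chromosome 19.

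Differences were tested with limma on log2(FPKM + 1), a scale that understates the change of low genes. The LPS, nicotine and genotype differences each set 4 libraries against 4 in an additive model, with adjusted p under 0.05 over all tested genes as the call. LPS was called higher for 1 gene of the 31 (3.23%) and lower for 2 (6.45%), where all tested genes gave 15.8% higher and 11.3% lower. Nicotine was called higher for 3 of the 31 (9.68%) and lower for 5 (16.1%), where all tested genes gave 24.1% and 22.2%. The LPS by nicotine interaction, the nicotine difference with LPS minus that without LPS, was called above 0 for 6 (19.4%) and below 0 for 2 (6.45%), against 12.8% and 17.3% of all tested genes. Shares at or under those of all genes are no result about the synthesis genes. The median log2 difference of the 31 was -0.25 for LPS, 0.05 for nicotine (-0.05 with quantile scaling) and 0.30 for the interaction, where all tested genes had medians of 0.02, -0.04 and -0.11. How the FPKM were scaled between libraries bears on these counts. With each library scaled to a common sum of 1000000 (sum scaling), the median LPS difference of all genes moved from 0.02 to -0.54 and that of the 31 genes from -0.25 to -0.85. The calls were then 0 higher and 15 lower for LPS, 4 higher and 2 lower for nicotine, and 15 above and 0 below 0 for the interaction. Over all genes sum scaling gave 863 higher and 4402 lower LPS calls in place of 1648 and 1176, and 3352 above and 573 below 0 for the interaction in place of 1332 and 1811. Quantile scaling gave 1284 higher and 1604 lower LPS calls over all genes, 1 higher and 4 lower among the 31, 3 higher and 4 lower for nicotine, and 1567 above and 1261 below 0 for the interaction. Median centring gave 1 higher and 3 lower LPS calls among the 31.

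Leaving out 1 library at a time also moved these counts. The LPS calls lower went from 2 to 0 without WT vehicle, WT LPS, KO vehicle or KO LPS. The nicotine calls lower went from 5 to 2 without WT vehicle, WT nicotine, WT LPS or KO vehicle, and to 3 without WT nicotine+LPS or KO nicotine. For the interaction, the calls above 0 went from 6 to 3 without WT nicotine or WT nicotine+LPS and to 11 without WT LPS. The calls below 0 went from 2 to 1 without WT vehicle or WT LPS, and to 0 without WT nicotine, WT nicotine+LPS, KO vehicle, KO nicotine or KO nicotine+LPS. Over all genes, the LPS calls went from 2824 to 1047 without WT vehicle, 1311 without WT LPS, 803 without KO vehicle and 944 without KO LPS. The interaction calls over all genes went from 3143 to 1231 without WT vehicle, 1333 without WT nicotine, 1035 without WT nicotine+LPS, 1939 without KO vehicle, 1381 without KO nicotine and 1355 without KO nicotine+LPS. A plot of the estimates shows where the calls fall by role.

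**Figure D2:**
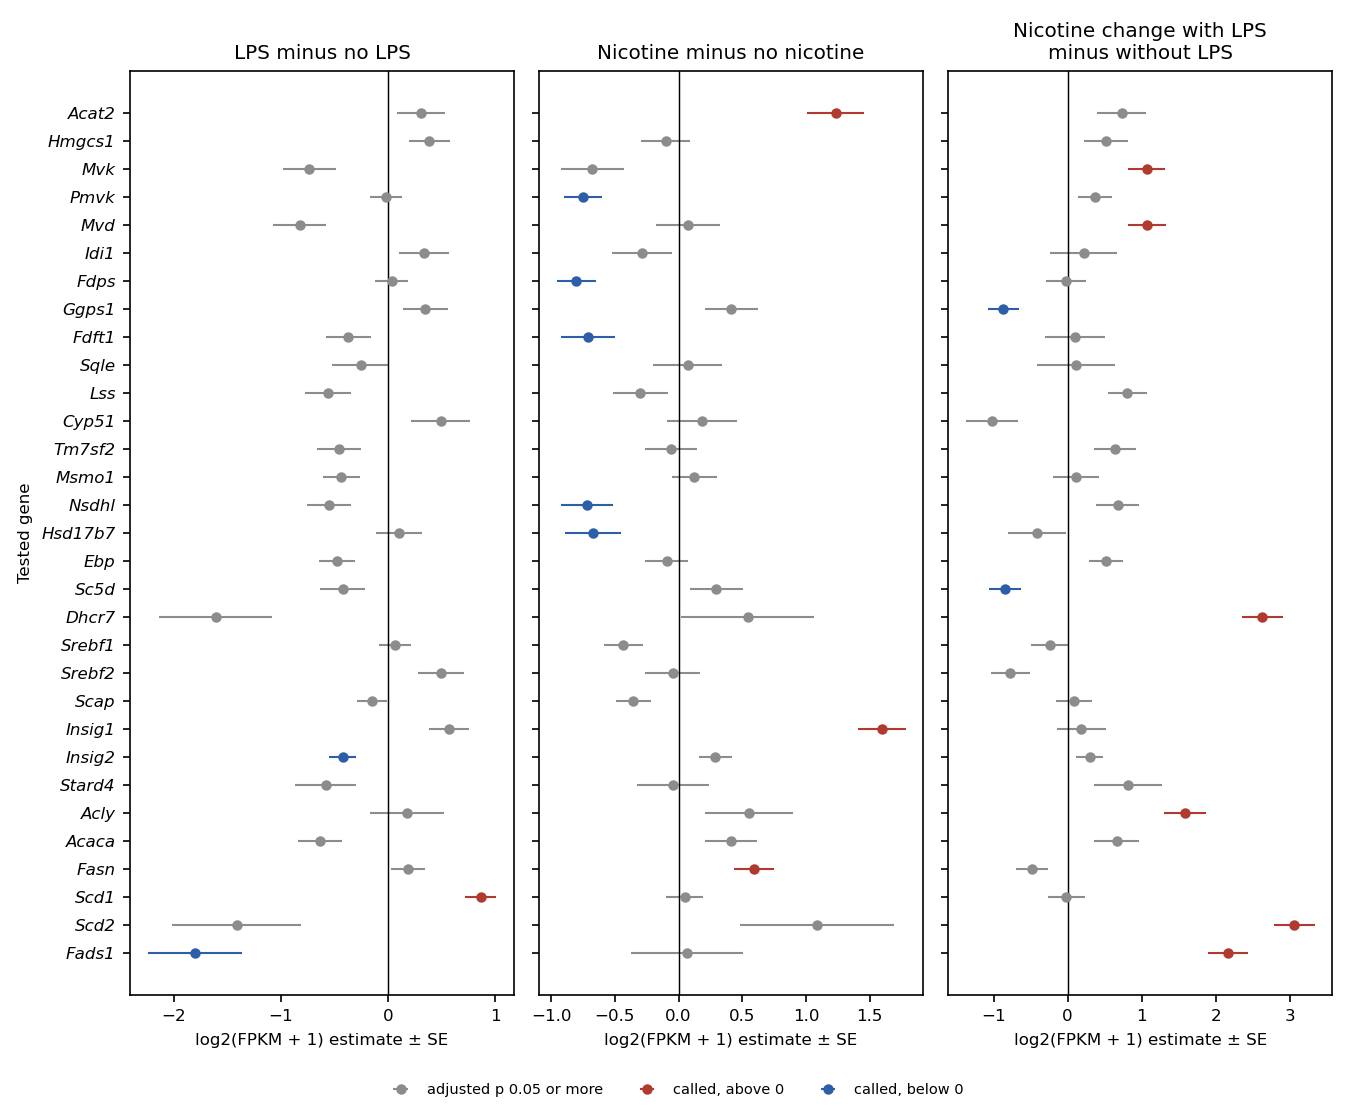
Estimates on the log2(FPKM + 1) scale with their standard errors for the 31 tested genes, for LPS, nicotine and the LPS by nicotine interaction. Red and blue points passed an adjusted p of 0.05 above and below 0, with 1 and 2 for LPS, 3 and 5 for nicotine and 6 and 2 for the interaction.

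In the mevalonate and isoprenoid steps, 8 genes were tested. LPS was called for none of them, nicotine for 1 higher (Acat2) and 2 lower (Pmvk and Fdps), and the interaction for 2 above 0 (Mvk and Mvd) and 1 below 0 (Ggps1). Acat2, the cytosolic thiolase that joins acetyl-CoA units at the start of the route, had 3.34 FPKM in vehicle, 9.51 in nicotine, 4.59 in LPS and 13.2 in nicotine+LPS for WT cells, and 4.64, 6.79, 3.08 and 13.7 in the same order for KO cells. All 4 nicotine libraries (6.79 to 13.7 FPKM) lay above all 4 without nicotine (3.08 to 4.64 FPKM). The highest were the nicotine+LPS libraries, where the mast, B, T and dendritic cell marker sums were also highest. Not every B, T and dendritic cell marker was highest there. The part of these cell types in the value was not tested. Acat2 rose with nicotine by a log2 difference of 1.23 ± 0.22 (SE), limma adjusted p = 0.00515, and with each library left out in turn the call was kept. Of the 50-base stretches of its longest transcript, 45.9% are also in transcripts of Acat3, so its value is uncertain.

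Pmvk, phosphomevalonate kinase, had 13.1 FPKM in vehicle, 5.33 in nicotine, 11.1 in LPS and 6.36 in nicotine+LPS for WT cells, and 14.9, 8.64, 13.0 and 9.47 in the same order for KO cells. The nicotine libraries (5.33 to 9.47 FPKM) lay below those without (11.1 to 14.9 FPKM), and Pmvk fell with a log2 difference of -0.75 ± 0.15 (SE), limma adjusted p = 0.00759. With each library left out in turn the call was kept. Fdps, farnesyl diphosphate synthase, had 24.9 FPKM in vehicle, 12.4 in nicotine, 27.6 in LPS and 11.8 in nicotine+LPS for WT cells, and 40.2, 25.7, 38.8 and 27.6 in the same order for KO cells. Nicotine was lower within every matched pair, although the 2 sets of libraries overlapped, the KO levels being higher than the WT levels in each pair. Fdps fell with a log2 difference of -0.80 ± 0.16 (SE), limma adjusted p = 0.00670, and with each library left out in turn the call was kept. Its value is uncertain, since 86.4% of its 50-base stretches recur in transcripts of other genes, among them Gm43738 and Gm3571. With nicotine as the only term in the model, so that the KO and WT levels entered the spread, the adjusted p for Fdps was 0.106.

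Mvk, mevalonate kinase, had 5.15 FPKM in vehicle, 1.70 in nicotine, 1.98 in LPS and 1.62 in nicotine+LPS for WT cells, and 7.38, 2.57, 1.99 and 1.78 in the same order for KO cells. Both vehicle libraries were high and the other 6 were low and close together. The interaction estimate was 1.06 ± 0.25 (SE), limma adjusted p = 0.0230, and the average nicotine and LPS differences did not pass (-0.68, adjusted p = 0.0611, and -0.73, adjusted p = 0.0659). The call ended without each library in turn except WT LPS and KO LPS (adjusted p = 0.0565 to 0.0929). The nicotine difference passed without WT nicotine+LPS (0.0465) or KO LPS (0.0385) as adjusted p. Mvd, the decarboxylase that forms isopentenyl diphosphate, had 13.4 FPKM in vehicle, 11.7 in nicotine, 5.41 in LPS and 9.47 in nicotine+LPS for WT cells, and 24.4, 14.2, 7.67 and 11.3 in the same order for KO cells. The LPS libraries (5.41 to 11.3 FPKM) lay below those without LPS (11.7 to 24.4 FPKM), and the KO vehicle library was the highest. The LPS difference missed the threshold (-0.82 ± 0.25 (SE), limma adjusted p = 0.0503) and passed without WT nicotine+LPS (0.0402) or KO nicotine (0.0437). It also passed with 0.1 rather than 1 added to the FPKM (0.0486), with median centring (0.0461) and with sum scaling (0.0186). The interaction was called (1.07 ± 0.25 (SE), limma adjusted p = 0.0245). The call ended without each library in turn except WT vehicle, WT LPS and KO LPS (adjusted p = 0.0594 to 0.101).

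Ggps1, which makes the geranylgeranyl group used in protein prenylation, had 9.83 FPKM in vehicle, 18.4 in nicotine, 15.6 in LPS and 17.0 in nicotine+LPS for WT cells, and 8.93, 16.9, 18.2 and 16.1 in the same order for KO cells. Both vehicle libraries were low and the other 6 were higher. Its interaction estimate was below 0 (-0.87 ± 0.21 (SE), limma adjusted p = 0.0249) and was -0.27, not called, with sum scaling. The call ended without each library in turn except WT LPS and KO LPS (adjusted p = 0.0709 to 0.0965). No difference was called for Hmgcs1, the cytosolic HMG-CoA synthase, which ranged from 23.2 to 42.5 FPKM, nor for Idi1, the isopentenyl diphosphate isomerase, which ranged from 5.72 to 14.5 FPKM. Idi1 shares 21.3% of its 50-base stretches with other genes.

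In the squalene and sterol ring steps, 11 genes were tested. No LPS difference was called, although 9 of the 11 estimates were below 0 with a median of -0.43 (all 11 below 0 with sum scaling, median -1.03). Of all 10447 tested genes, 5069 had an LPS estimate below 0, with a median of 0.02 (-0.54 with sum scaling). Nicotine was called lower for 3 (Fdft1, Nsdhl and Hsd17b7), and the interaction above 0 for 1 (Dhcr7) and below 0 for 1 (Sc5d). Fdft1, squalene synthase and the first step committed to sterols, had 9.99 FPKM in vehicle, 5.26 in nicotine, 8.99 in LPS and 3.02 in nicotine+LPS for WT cells, and 10.5, 6.07, 6.09 and 6.03 in the same order for KO cells. The nicotine libraries (3.02 to 6.07 FPKM) lay just below those without nicotine (6.09 to 10.5 FPKM). Fdft1 fell with a log2 difference of -0.71 ± 0.21 (SE), limma adjusted p = 0.0307, and the call ended without each library in turn except KO LPS and KO nicotine+LPS (adjusted p = 0.0731 to 0.0884). It shares 10.9% of its 50-base stretches with Gm6781.

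Nsdhl, which helps remove methyl groups from the sterol ring, had 7.78 FPKM in vehicle, 3.14 in nicotine, 4.45 in LPS and 2.19 in nicotine+LPS for WT cells, and 11.1, 4.94, 4.72 and 4.75 in the same order for KO cells. Its levels with and without nicotine overlapped, with the vehicle libraries highest. Nsdhl fell with nicotine by a log2 difference of -0.72 ± 0.20 (SE), limma adjusted p = 0.0254, and the call ended without each library in turn except KO LPS and KO nicotine+LPS (adjusted p = 0.0582 to 0.0824). Hsd17b7, a ketoreductase of the same demethylation, had 3.54 FPKM in vehicle, 1.87 in nicotine, 5.17 in LPS and 1.25 in nicotine+LPS for WT cells, and 3.34, 2.59, 3.89 and 2.97 in the same order for KO cells. All 4 nicotine libraries (1.25 to 2.97 FPKM) lay below the other 4 (3.34 to 5.17 FPKM). Hsd17b7 fell with a log2 difference of -0.67 ± 0.22 (SE), limma adjusted p = 0.0425, but the call ended without each of the 8 libraries in turn (adjusted p = 0.0534 to 0.0965).

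Dhcr7, the reductase of the final step to cholesterol, had 11.8 FPKM in vehicle, 6.32 in nicotine, 0.364 in LPS and 4.30 in nicotine+LPS for WT cells, and 10.9, 6.17, 0.954 and 5.59 in the same order for KO cells. Both libraries with LPS alone were under 1 FPKM, and the other 6 lay well above them, between 4.30 and 11.8 FPKM. The log2 difference of LPS against vehicle was -3.23 in WT and -2.61 in KO cells, and with nicotine in both it was -0.47 and -0.12. The interaction estimate was 2.63 ± 0.27 (SE), limma adjusted p = 0.00402, and with each library left out in turn the call was kept. The average LPS difference missed the threshold (-1.61 ± 0.52 (SE), limma adjusted p = 0.0597) and passed without KO nicotine (0.0480). Sc5d, a sterol desaturase that acts just before, had 23.0 FPKM in vehicle, 37.4 in nicotine, 24.3 in LPS and 19.0 in nicotine+LPS for WT cells, and 17.8, 30.8, 16.8 and 17.9 in the same order for KO cells. It was highest in both nicotine libraries and close together elsewhere. The interaction estimate was -0.85 ± 0.21 (SE), limma adjusted p = 0.0285, and -0.22 without a call with sum scaling. The call ended without each library in turn except KO LPS (adjusted p = 0.0550 to 0.113).

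The other sterol enzymes had no call. Cyp51, the lanosterol demethylase, was lowest in the vehicle libraries (19.8 in WT and 14.2 FPKM in KO) and reached 35.1 FPKM in KO LPS. Its interaction estimate was -1.02 ± 0.35 (SE), limma adjusted p = 0.0706, which passed without WT vehicle (0.0441) and passed with all 3 pairwise interactions in the model (0.0255). Lss, lanosterol synthase, ranged from 1.12 to 4.14 FPKM, highest in the vehicle libraries. Sqle, squalene epoxidase, ranged from 6.90 to 16.9 FPKM, and Msmo1, the methylsterol monooxygenase, from 32.0 to 63.9 FPKM, both lowest in KO LPS. Ebp, the sterol isomerase, had all 4 LPS libraries (10.9 to 15.8 FPKM) below the other 4 (15.9 to 22.9 FPKM), with an estimate of -0.47 ± 0.17 (SE), limma adjusted p = 0.0754. Tm7sf2, a sterol reductase, ranged from 0.451 to 2.56 FPKM, lowest in WT LPS.

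Of the 6 sterol sensing and transport genes, LPS was called lower for 1 (Insig2), nicotine higher for 1 (Insig1) and the interaction for none. Insig1 had 44.4 FPKM in vehicle, 96.3 in nicotine, 61.1 in LPS and 158 in nicotine+LPS for WT cells, and 28.7, 109.7, 41.2 and 169.8 in the same order for KO cells. All 4 nicotine libraries (96.3 to 169.8 FPKM) lay above all 4 without (28.7 to 61.1 FPKM), and the nicotine+LPS libraries were the highest in both genotypes. The mast, B, T and dendritic cell marker sums were also highest in the nicotine+LPS libraries, though not every B, T and dendritic cell marker was. The neutrophil marker sum was lower in the 4 nicotine libraries (82.8 to 113 FPKM) than in the other 4 (167 to 259 FPKM). Its markers differed. Csf3r was separated in the same way, while S100a8 overlapped (86.9 FPKM in KO nicotine+LPS, 34.1 in WT vehicle). Mmp8 was higher in nicotine+LPS than in LPS (11.2 and 7.12 FPKM in WT, 9.82 and 8.11 in KO). The part of these cell types in the nicotine differences of Insig1 and the other synthesis genes was not tested. The nicotine log2 difference was 1.10 in WT and 1.90 in KO without LPS, and 1.35 and 2.02 with LPS. Insig1 rose with nicotine by 1.59 ± 0.19 (SE), limma adjusted p = 0.00112, and with each library left out in turn the call was kept. The interaction was not called (0.19, adjusted p = 0.694), and its estimate fell below 0 without WT vehicle (-0.076), WT nicotine (-0.085), KO LPS (-0.040) or KO nicotine+LPS (-0.031). The LPS estimate was 0.57, adjusted p = 0.0595, and -0.03 with sum scaling.

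Insig2, its paralog, had 10.5 FPKM in vehicle, 11.2 in nicotine, 6.80 in LPS and 9.56 in nicotine+LPS for WT cells, and 9.16, 10.7, 5.81 and 8.22 in the same order for KO cells. The LPS libraries without nicotine were lowest, and the groups with and without LPS overlapped. Insig2 fell with LPS by a log2 difference of -0.42 ± 0.13 (SE), limma adjusted p = 0.0498, but the call ended without each of the 8 libraries in turn (adjusted p = 0.0643 to 0.162). Srebf2, the SREBP gene with mainly sterol targets, had 29.1 FPKM in vehicle, 36.2 in nicotine, 64.8 in LPS and 37.5 in nicotine+LPS for WT cells, and 30.7, 40.1, 48.4 and 45.3 in the same order for KO cells. The WT LPS and KO LPS libraries were highest. The LPS estimate of Srebf2 was 0.50, adjusted p = 0.116, not called, and -0.11 with sum scaling. Its interaction estimate was -0.77, adjusted p = 0.0675, which passed only without KO LPS (0.0131) among the libraries left out.

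Srebf1, the SREBP gene with mainly fatty acid targets, had 8.97 FPKM in vehicle, 6.91 in nicotine, 12.6 in LPS and 7.70 in nicotine+LPS for WT cells, and 10.9, 8.76, 10.4 and 7.27 in the same order for KO cells. All 4 nicotine libraries (6.91 to 8.76 FPKM) lay below the other 4 (8.97 to 12.6 FPKM), with an estimate that missed the threshold (-0.43 ± 0.15 (SE), limma adjusted p = 0.0515). It passed without KO nicotine (0.0485) and with median centring (0.0461). Scap, the escort protein, had 9.33 FPKM in vehicle, 6.15 in nicotine, 8.66 in LPS and 5.53 in nicotine+LPS for WT cells, and 7.17, 5.77, 5.67 and 5.42 in the same order for KO cells, with a nicotine estimate of -0.36, adjusted p = 0.0722. Stard4, a soluble sterol carrier, had 10.4 FPKM in vehicle, 6.36 in nicotine, 6.40 in LPS and 4.75 in nicotine+LPS for WT cells, and 9.82, 8.03, 3.24 and 8.09 in the same order for KO cells, and the KO LPS library was the lowest.

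Of the 6 tested fatty acid genes, LPS was called higher for 1 (Scd1) and lower for 1 (Fads1). Nicotine was called higher for 1 (Fasn), with all 6 estimates above 0 (4 of 6 with quantile scaling) and a median of 0.48. These estimates average over LPS. Without LPS, the nicotine difference was above 0 in both genotypes for 1 of the 6 and below 0 for 2 (medians -0.21 in WT and -0.05 in KO). With LPS it was above 0 in both for 5 and below 0 for 0 (medians 0.91 and 0.99). Of all 10447 tested genes, 5036 had a nicotine estimate above 0, with a median of -0.04. The interaction was called above 0 for 3 (Acly, Scd2 and Fads1). Acly, which makes cytosolic acetyl-CoA from citrate, had 72.1 FPKM in vehicle, 50.6 in nicotine, 35.3 in LPS and 106 in nicotine+LPS for WT cells, and 57.7, 58.7, 49.3 and 109 in the same order for KO cells. It was lowest with LPS alone and highest with nicotine+LPS in both genotypes. The mast, B, T and dendritic cell marker sums, though not every B, T and dendritic cell marker, were highest in the same libraries as Acly. The part of these cell types was not tested. The nicotine difference was -0.50 in WT and 0.02 in KO without LPS, and 1.56 and 1.13 with LPS. The interaction estimate was 1.59 ± 0.28 (SE), limma adjusted p = 0.0107, and the call ended without WT nicotine (0.0513) or WT nicotine+LPS (0.0551) as adjusted p.

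Fasn, fatty acid synthase, had 3.70 FPKM in vehicle, 6.50 in nicotine, 5.42 in LPS and 6.47 in nicotine+LPS for WT cells, and 3.03, 6.99, 4.33 and 6.41 in the same order for KO cells. The nicotine libraries (6.41 to 6.99 FPKM) were close together and above the other 4 (3.03 to 5.42 FPKM). Fasn rose with nicotine by a log2 difference of 0.59 ± 0.16 (SE), limma adjusted p = 0.0211, and the call ended without each library in turn except WT LPS, WT nicotine+LPS and KO nicotine+LPS (adjusted p = 0.0509 to 0.0727). Acaca, acetyl-CoA carboxylase, ranged from 2.51 to 9.81 FPKM, lowest in KO LPS and then WT LPS. Its LPS estimate was -0.64, adjusted p = 0.0582, which passed without WT nicotine (0.0447) or KO nicotine+LPS (0.0481), and 52.6% of its 50-base stretches recur in Gm5182.

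Scd1 and Scd2 are stearoyl-CoA desaturases that make monounsaturated fatty acids. Scd1 had 11.9 FPKM in vehicle, 14.3 in nicotine, 20.6 in LPS and 22.2 in nicotine+LPS for WT cells, and 14.3, 13.0, 29.6 and 29.1 in the same order for KO cells. All 4 LPS libraries (20.6 to 29.6 FPKM) lay above the other 4 (11.9 to 14.3 FPKM), and within each set the levels with and without nicotine were close. Scd1 rose with LPS by a log2 difference of 0.87 ± 0.15 (SE), limma adjusted p = 0.0108, and with each library left out in turn the call was kept. With sum scaling the estimate was 0.29 (adjusted p = 0.229), and the call also ended with LPS as the only term. Scd2 had 9.08 FPKM in vehicle, 7.19 in nicotine, 0.579 in LPS and 6.70 in nicotine+LPS for WT cells, and 18.4, 11.8, 1.09 and 15.1 in the same order for KO cells. Both libraries with LPS alone were at or under 1.09 FPKM and the other 6 lay between 6.70 and 18.4 FPKM.

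The LPS log2 difference of Scd2 was -2.67 in WT and -3.21 in KO without nicotine, and -0.09 and 0.32 with nicotine. The interaction estimate of Scd2 was 3.06 ± 0.27 (SE), limma adjusted p = 0.00360, the largest of the 31 genes, and with each library left out in turn the call was kept. The average LPS difference, which pools the 2 conditions, was not called (-1.41, adjusted p = 0.115). Scd1 and Scd2 share 4.66% and 4.01% of their 50-base stretches with other genes, among them each other and Scd3.

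Fads1, a front-end desaturase of polyunsaturated fatty acids, had 20.7 FPKM in vehicle, 9.26 in nicotine, 1.90 in LPS and 6.82 in nicotine+LPS for WT cells, and 27.0, 13.5, 2.85 and 6.03 in the same order for KO cells. All 4 LPS libraries (1.90 to 6.82 FPKM) lay below the other 4 (9.26 to 27.0 FPKM), and those with LPS alone were the lowest. Fads1 fell with LPS by a log2 difference of -1.80 ± 0.44 (SE), limma adjusted p = 0.0284, and the call ended without WT vehicle (0.0885), WT LPS (0.0774), KO vehicle (0.0931) or KO LPS (0.0944) as adjusted p. The LPS difference was -2.91 in WT and -2.86 in KO without nicotine, and -0.39 and -1.04 with it, with an interaction estimate of 2.17 ± 0.27 (SE), limma adjusted p = 0.00537. For that estimate, with each library left out in turn the call was kept. Fads2, the paired desaturase, had 0.178 FPKM in vehicle, 0.183 in nicotine, 0.0735 in LPS and 0.256 in nicotine+LPS for WT cells, and 2.86, 1.12, 0.518 and 1.22 in the same order for KO cells, with every KO library above every WT library, and was too low to test. Elovl6, which lengthens palmitate, ranged from 0.183 to 0.592 FPKM. The resident macrophage marker sum, mostly Prg4 and Timd4, and the total FPKM were highest in the LPS-alone libraries. Dhcr7, Scd2 and Fads1 were lowest in those libraries, and the part of either sum in their values was not tested.

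**Figure D3:**
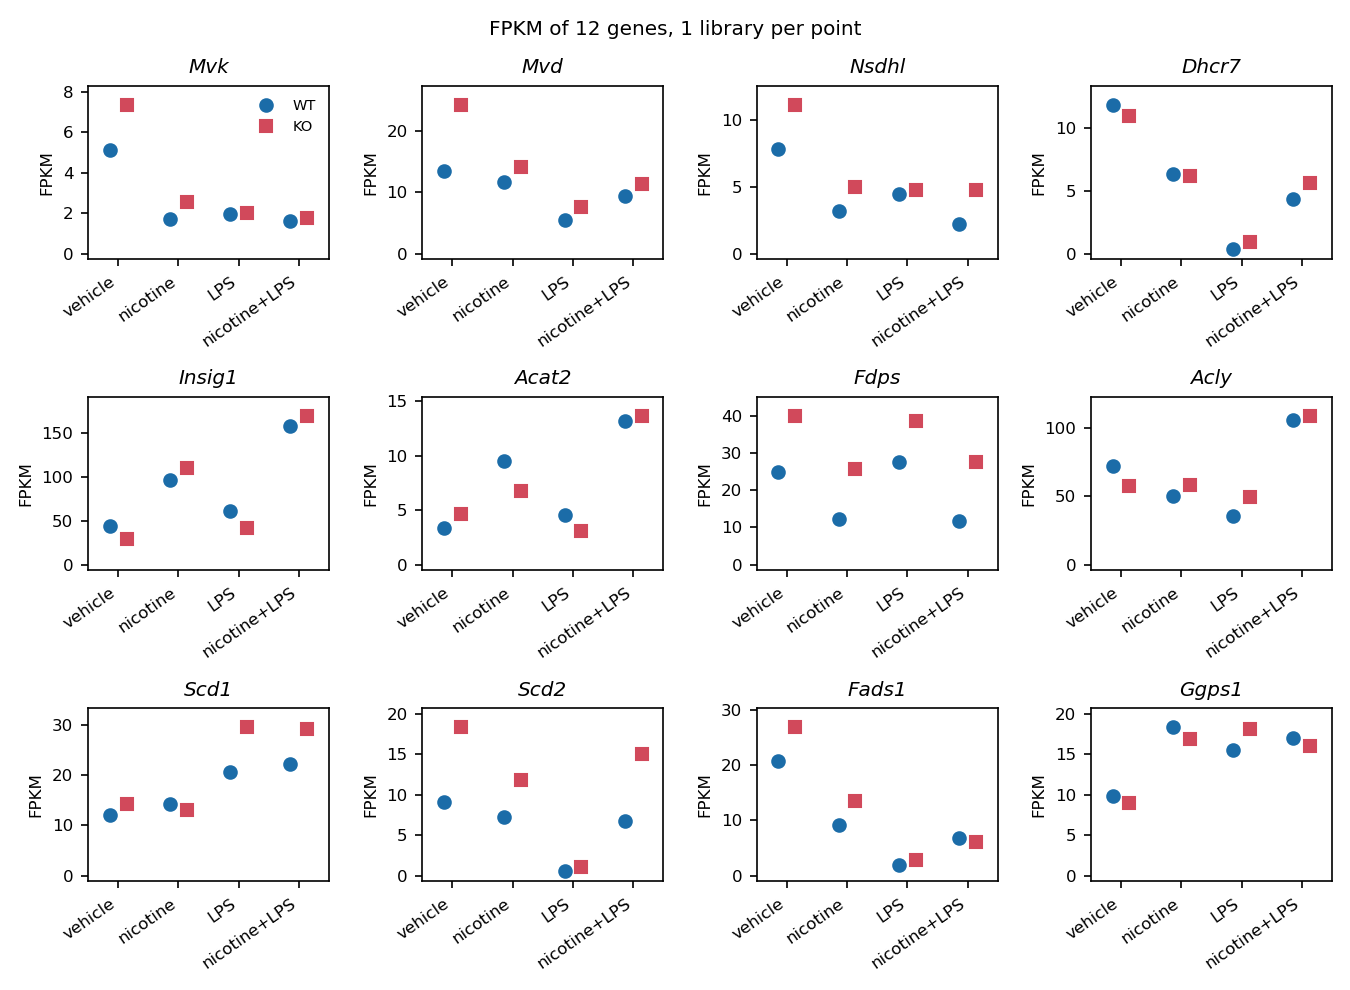
FPKM (y axis) of 12 genes by treatment, 1 library per point, with WT as blue circles and KO as red squares shifted sideways for clarity. Scd2 and Dhcr7 lie near 0 with LPS alone (0.579 and 1.09 for Scd2, 0.364 and 0.954 for Dhcr7), and Insig1 is highest with nicotine+LPS.

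Other settings ended some of these calls, given here with the limma adjusted p. Without the filter on low values the calls lost were for LPS Fads1 (0.0579) and Insig2 (0.0826), and for nicotine Nsdhl (0.0545), Fdft1 (0.0599) and Hsd17b7 (0.0800), and for interaction Mvk (0.0510). With sum scaling they were for LPS Scd1 (0.229), and for nicotine Nsdhl (0.0943), Fdft1 (0.0756) and Hsd17b7 (0.0641), and for interaction Ggps1 (0.369) and Sc5d (0.519). With the factor as the only term they were for LPS Insig2 (0.251) and Scd1 (at the threshold), and for nicotine Fdps (0.106), Nsdhl (0.128), Fdft1 (0.0627) and Hsd17b7 (0.0548). With quantile scaling they were for nicotine Hsd17b7 (0.135), and for interaction Mvk (0.0668) and Sc5d (0.127), and without a trend in the moderation for LPS Insig2 (0.0546). Other settings also added calls. The LPS falls gained with sum scaling included Mvd (0.0186), Acaca (0.0205), Mvk (0.0275) and Dhcr7 (0.0287).

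Matched libraries were also compared pair by pair, with no test, by counting genes at least 2-fold different on log2(FPKM + 1) in both genotypes, with at least 5 FPKM in either library of each pair. LPS without nicotine was lower for 5 of 26 genes (19.2%), Mvk, Mvd, Dhcr7, Scd2 and Fads1, where 10% of all genes were, and higher for 0 of 26, where 18% of all genes were. LPS with nicotine was higher for 0 and lower for 0 of 26, where 5.63% and 2.34% of all genes were. Nicotine without LPS was higher for 1 of 28 (Insig1) and lower for 2 (Mvk and Nsdhl), where 15.6% and 9.3% of all genes were. Nicotine with LPS was higher for 4 of 25 (16.0%), Acat2, Insig1, Acly and Scd2, and lower for 0, where 11.9% and 14.5% of all genes were. Dhcr7 was higher by 1.96 in WT and 1.75 in KO but was not counted, its WT pair lying under 5 FPKM. With at least 1 FPKM asked for, 5 of 31 (16.1%) were higher, where 10.5% of all genes were. The comparisons of LPS with and without nicotine share no library, while those of LPS and of nicotine do. Most of these shares are near or under those of all genes. With sum scaling, 14 of 26 genes (53.8%) were lower with LPS without nicotine and 1 of 26 (3.85%) with nicotine, where 30.3% and 5.39% of all genes were. With quantile scaling, 5 of 26 (19.2%) were lower with LPS without nicotine, nearer to the 14.9% of all genes.

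**Figure D4:**
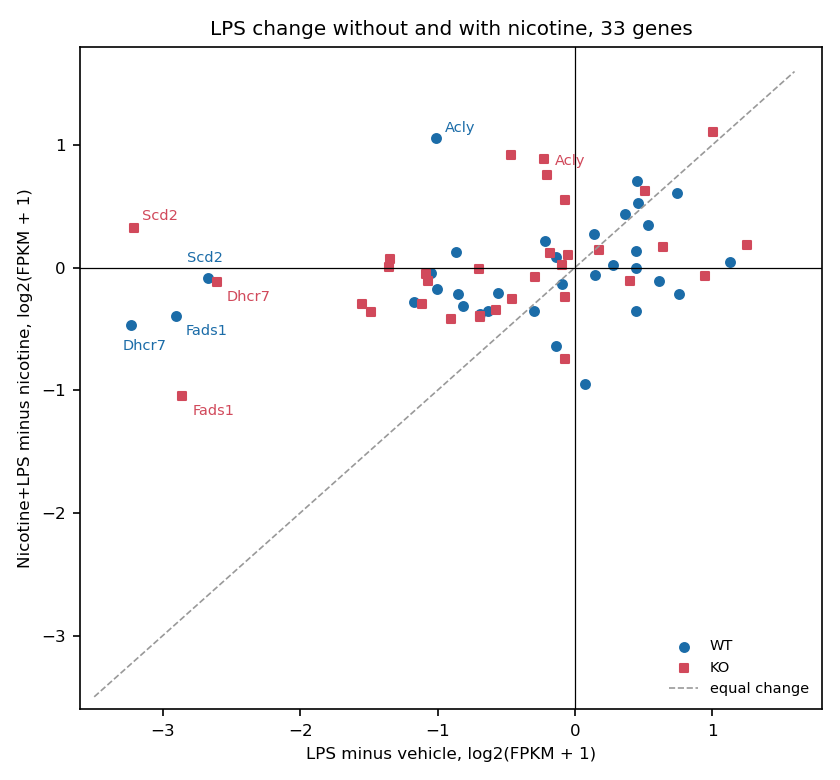
LPS difference without nicotine (x axis) against that with nicotine (y axis), both in log2(FPKM + 1), for 33 genes in WT (blue circles) and KO (red squares), with the dashed line at equal change. Scd2, Dhcr7 and Fads1 lie far left at -2.61 to -3.23 and, with nicotine, between -1.04 and 0.32.

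No gene of the 31 was called for genotype, against 1.1% (115) of all tested genes, and 2 had an unadjusted p under 0.05 in limma (Fdps and Pmvk). Fdps had the estimate with the lowest adjusted p, 0.83 ± 0.16 (SE), limma adjusted p = 0.0792, and was higher in KO than in WT in 4 of 4 matched pairs. The genotype by nicotine interaction was called for 0% of all tested genes, with 2 of the 31 and 64 of all at an unadjusted p under 0.05 in limma. The LPS by genotype interaction was likewise called for 0%, with 0 of the 31 and 112 of all at an unadjusted p under 0.05. Fitting all 3 pairwise interactions together also gave 0 calls for both. The fits of a single genotype interaction leave the LPS by nicotine interaction in their spread, and the joint fit leaves 1 residual degree of freedom, so the lack of calls does not show that the genotypes responded alike. The count of 115 genes fell to 26 without WT vehicle, 36 without WT nicotine, 24 without WT nicotine+LPS, 21 without KO vehicle, 13 without KO nicotine, 17 without KO LPS and 37 without KO nicotine+LPS, and that of the 31 genes was 0 each time.

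Neighbouring pathways were read from 3 further lists. Of 20 genes of sterol sensing, efflux and degradation, LPS was called higher for 2 (10.0%) and lower for 6 (30.0%), with a median of -0.22, where all tested genes gave 15.8% and 11.3%. Nicotine was called higher for 6 (30.0%) and lower for 2 (10.0%), with a median of -0.03, where all tested genes gave 24.1% and 22.2%. The interaction was called above 0 for 0 and below 0 for 6 (30.0%), where all tested genes gave 12.8% and 17.3%. The shares above those of all genes were those lower with LPS and below 0 for the interaction, while that higher with nicotine was near the background. With LPS, Ch25h, which makes 25-hydroxycholesterol, rose by a log2 difference of 5.73, adjusted p = 0.0188 and Npc2, a lysosomal sterol carrier, by 0.63, adjusted p = 0.0401, while Rxra (-1.89, adjusted p = 0.000649), the cholesterol-esterifying enzyme Soat1 (-1.76, adjusted p = 0.00586) and the lysosomal sterol transporter Npc1 (-1.06, adjusted p = 0.00735) fell. With nicotine, Npc1 (2.17, adjusted p = 0.000413), Soat1 (1.11, adjusted p = 0.0114) and Tmem97 (0.93, adjusted p = 0.00231) rose, while the oxysterol receptor gene Nr1h3 (-0.71, adjusted p = 0.0389) and Erlin2 (-0.64, adjusted p = 0.0181) fell. The calls of Rxra, Soat1, Npc1 and Tmem97 were kept with each library left out. For Ch25h the call ended without WT LPS (0.0543), KO vehicle (0.0696) or KO LPS (0.0675) as adjusted p. For Npc2 the call ended without each library in turn except KO nicotine+LPS (adjusted p = 0.0525 to 0.143), and its estimate was -0.10 with quantile scaling. For both genes the LPS by nicotine interaction was called too. Ch25h had 0.203 FPKM in vehicle, 0.692 in nicotine, 845 in LPS and 9.02 in nicotine+LPS for WT cells, and 2.96, 0.714, 1069.6 and 11.0 for KO cells, so that it was highest with LPS alone and far lower in nicotine+LPS, which still lay above all libraries without LPS. The interaction estimate of Ch25h was -6.08 ± 0.55 (SE), limma adjusted p = 0.00360, and with each library left out in turn the call was kept. That of Npc2 was -0.70, adjusted p = 0.0268, the call ended without each library in turn except WT LPS and KO LPS (adjusted p = 0.0583 to 0.111), and it was 0.12 with quantile scaling and -0.04 with sum scaling. For Nr1h3 the call ended without each library in turn except WT LPS and WT nicotine+LPS (adjusted p = 0.0713 to 0.110), and for Erlin2 the call ended without WT nicotine+LPS (0.0563), KO LPS (0.0579) or KO nicotine+LPS (0.0561) as adjusted p.

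Of 23 tested genes of 25 that supply acetyl-CoA and NADPH or activate and lengthen fatty acids, LPS was called higher for 3 (13.0%) and lower for 5 (21.7%), with a median of -0.11. Nicotine was called higher for 3 (13.0%) and lower for 7 (30.4%), with a median of -0.19. The interaction was called above 0 for 4 and below 0 for 4 (17.4% each). All tested genes gave 15.8% and 11.3% for LPS, 24.1% and 22.2% for nicotine, and 12.8% and 17.3% for the interaction. The shares higher with LPS and on either side of 0 for the interaction were near this background, and that higher with nicotine was under it. With LPS, the acyl-CoA synthetases Acsl5 (0.99, adjusted p = 0.0439) and Acsl4 (0.87, adjusted p = 0.0421) and Hsd17b12 (0.90, adjusted p = 0.0175) rose, and Idh1 (-1.93, adjusted p = 0.0188), a cytosolic NADPH source, Hacd4 (-1.87, adjusted p = 0.0471) and Lpin1 (-1.84, adjusted p = 0.0182) fell. With nicotine, Acsl3 (1.99, adjusted p = 0.000597), Pgd (0.55, adjusted p = 0.0426) and Aacs (0.49, adjusted p = 0.0374) rose, and Acsl1 (-2.35, adjusted p = 0.0105), the mitochondrial thiolase Acat1 (-1.66, adjusted p = 0.000634) and the citrate carrier Slc25a1 (-1.63, adjusted p = 0.000866) fell. The nicotine calls of Acsl3, Acsl1, Acat1 and Slc25a1 were kept with each library left out. For Idh1 the call ended without WT vehicle (0.0561), WT LPS (0.0589), KO vehicle (0.0700) or KO LPS (0.0572) as adjusted p. For Lpin1 the call ended without KO vehicle (0.0658) or KO LPS (0.0675) as adjusted p. For Hsd17b12 the call ended without WT vehicle (0.0601) or KO vehicle (0.0609) as adjusted p. For Acsl5 the call ended without each library in turn except KO nicotine and KO nicotine+LPS (adjusted p = 0.0593 to 0.136), and for Acsl4 the call ended without each library in turn except WT nicotine and WT nicotine+LPS (adjusted p = 0.0528 to 0.139). For Hacd4 the call ended without each library in turn except WT nicotine+LPS and KO nicotine (adjusted p = 0.0613 to 0.140). For Pgd the call ended without each library in turn except WT LPS and KO nicotine+LPS (adjusted p = 0.0606 to 0.135), and for Aacs the call ended without each library in turn except WT nicotine (adjusted p = 0.0550 to 0.114).

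Some of these differences were not alike with and without the other agent. The LPS by nicotine interaction was called above 0 for Hacd4 (2.57, adjusted p = 0.0143), Idh1 (1.91, adjusted p = 0.00786) and Lpin1 (1.67, adjusted p = 0.0231), and below 0 for Acsl1 (-2.16, adjusted p = 0.0374), Acsl5 (-1.19, adjusted p = 0.0309) and Acsl4 (-1.08, adjusted p = 0.0137). Lpin1 had 8.53 FPKM in vehicle, 6.58 in nicotine, 0.0539 in LPS and 2.56 in nicotine+LPS for WT cells, and 3.68, 5.86, 0.0362 and 2.64 for KO cells, lowest with LPS alone. Acsl1 had 19.7 FPKM in vehicle, 13.2 in nicotine, 191 in LPS and 14.7 in nicotine+LPS for WT cells, and 160.1, 39.6, 395 and 40.6 for KO cells, highest with LPS alone in both genotypes. When each library was left out in turn, the Idh1 interaction call was kept. For Hacd4 the call ended without WT nicotine+LPS (0.0576) or KO nicotine (0.0628) as adjusted p, and for Acsl4 the call ended without WT vehicle (0.0504), WT nicotine (0.0617), WT nicotine+LPS (0.0635) or KO nicotine+LPS (0.0579) as adjusted p. For Lpin1 the call ended without each library in turn except WT vehicle, KO vehicle and KO LPS (adjusted p = 0.0553 to 0.0927), for Acsl1 the call ended without each library in turn except WT vehicle, KO vehicle and KO LPS (adjusted p = 0.0923 to 0.133), and for Acsl5 the call ended without each library in turn except KO vehicle and KO LPS (adjusted p = 0.0539 to 0.120).

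Of 14 genes that use isoprenoid units, LPS was called higher for 0 and lower for 2 (14.3%), with a median of -0.02, against 15.8% and 11.3% of all tested genes. Nicotine was called higher for 3 (21.4%) and lower for 1 (7.14%), with a median of -0.13, against 24.1% and 22.2%. The interaction was called above 0 for 1 (7.14%) and below 0 for 3 (21.4%), against 12.8% and 17.3%. With 14 genes, 1 gene is 7.14% of the list, and no share stood more than 1 gene above that of all genes. Fnta, a prenyltransferase subunit, fell with LPS (-0.83, adjusted p = 0.0172) and rose with nicotine (0.67, adjusted p = 0.0168), and Dolk, dolichol kinase, fell with LPS (-0.60, adjusted p = 0.0454). With nicotine, Rabggtb (1.24, adjusted p = 0.00118) and Icmt (0.70, adjusted p = 0.00983) rose, and Coq2, which builds coenzyme Q, fell (-1.36, adjusted p = 0.00507). The nicotine calls of Rabggtb, Icmt and Coq2 were kept with each library left out. The interaction of Coq2 was also called (-1.08, adjusted p = 0.0173), but the call ended without each library in turn except WT LPS, KO vehicle and KO LPS (adjusted p = 0.0554 to 0.0811). For the LPS difference of Fnta the call ended without KO vehicle (0.0603) as adjusted p, and for its nicotine difference the call ended without WT vehicle (0.0502), WT nicotine (0.0556), KO vehicle (0.0575) or KO nicotine (0.0544) as adjusted p. For Dolk the call ended without each library in turn except WT nicotine and WT nicotine+LPS (adjusted p = 0.0949 to 0.152). Among the genes named from the 3 lists, the factor as the only term also ended the LPS calls of Acsl4, Acsl5, Ch25h, Dolk, Fnta, Hacd4, Hsd17b12, Lpin1, Npc1, Npc2 and Soat1 and the nicotine calls of Aacs, Acsl1, Fnta, Nr1h3, Pgd, Soat1 and Tmem97. Sum scaling ended the LPS calls of Acsl4, Acsl5, Hsd17b12 and Npc2 and the nicotine calls of Aacs, Icmt and Nr1h3. For the interaction, sum scaling ended the calls of Acsl1, Acsl4, Acsl5, Coq2 and Npc2, quantile scaling those of Acsl1, Acsl4 and Acsl5, no filter on low values those of Acsl1, Acsl5 and Lpin1, and the joint fit of 3 interactions that of Npc2 (0.0537). Quantile scaling ended the LPS calls of Acsl4, Acsl5, Dolk and Hsd17b12 and the nicotine call of Nr1h3. Without the filter on low values the LPS calls of Acsl4, Acsl5, Dolk, Hacd4 and Npc2 and the nicotine calls of Aacs, Nr1h3 and Pgd ended.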

How the data were processed

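RNA was sequenced from mouse peritoneal macrophages in 8 groups of 1 library. Per the labels' protocols, poly(A) RNA was selected and libraries were built with a TruSeq kit. The deposited values are FPKM computed by the authors. Tools named, without order, per the submitters' processing notes are HISAT2, Cuffdiff, Cufflinks and CASAVA 1.8, with build mm10. The sources used here do not give the annotation, filters or scaling between libraries. Depth is unknown, since low values did not step in whole reads. Where a symbol was repeated (2 cases), its line with the higher mean was used.

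Differences of log2(FPKM + 1) were tested with R 4.3.3 and limma 3.58.1, using trended moderation, for the 10447 genes whose mean reached 1 FPKM. P-values were adjusted over all of them by Benjamini-Hochberg, with 0.05 as the threshold. The additive model had 4 residual degrees of freedom and each interaction model 3, so the spread is the departure from additivity. The fits were run on simulated data with independent noise and only the tested term added. Those data held no other interaction and no shift in scaling between libraries, so they do not test for either. Alternatives were a pseudocount of 0.1, no filter on low values, quantile, median and sum scaling, moderation without a trend, the factor as the only term, all 3 pairwise interactions together and leaving out each library.

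Values in all 8 libraries are given for genes called in any test, those past 2-fold in at least 2 of the 4 pairs of a factor and all 6 sterol sensing genes. From the 3 other lists, the called genes with the largest rise and fall, up to 3 each, are named. Genes and lists were chosen with earlier results of these data known. Promoter sequences came from RefSeq (GRCm38.p6) and shared 50-base stretches from GENCODE transcripts on GRCm38. Other steps used Python 3.11.15 with Matplotlib 3.10.9, SciPy 1.17.1, NumPy 2.4.6 and pandas 2.3.3.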

Additional observations from a re-analysis of the deposited data

Results flagged for a closer look

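For 8 of the 31 tested genes the nicotine difference with LPS differed from that without LPS by the interaction test in limma (adjusted p under 0.05). The 31 gave 19.4% above and 6.45% below 0, where all tested genes gave 12.8% and 17.3% (3143 of 10447 called). The interaction estimates on the log2(FPKM + 1) scale were 3.06 for Scd2, 2.63 for Dhcr7, 2.17 for Fads1, 1.59 for Acly, 1.07 for Mvd and 1.06 for Mvk. They were -0.87 for Ggps1 and -0.85 for Sc5d. The Scd2, Dhcr7 and Fads1 calls were kept with each of the 8 libraries left out in turn. The same test was passed by 9 of the genes named from the neighbouring pathways. Their estimates were -6.08 for Ch25h, -2.16 for Acsl1, -1.19 for Acsl5, -1.08 for Coq2, -1.08 for Acsl4 and -0.70 for Npc2, and 2.57 for Hacd4, 1.91 for Idh1 and 1.67 for Lpin1. The Ch25h and Idh1 calls were kept with each library left out.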

How the results depend on the processing

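With 1 library per group, the limits are the spread between libraries and the scaling of FPKM between them, and no value has a depth behind it. The labels give no replicate numbers, so no fit with a replicate block was made, and libraries were matched by the other 2 factors. For the changes below the cause was not tested. Scaling each library to a common sum gave 0 LPS calls higher (1 in the reported test) and 15 lower (2) among the synthesis genes, 5265 LPS calls over all genes (2824), 2 nicotine calls lower (5), and 15 interaction calls above 0 (6) and 0 below (2). In pairs it gave 14 genes lower with LPS without nicotine (5), 1 lower with LPS with nicotine (0), 0 higher with nicotine without LPS (1; also 0 with quantile scaling) and 4 lower (2). Quantile scaling gave 4 LPS calls lower. Without the filter on low values there were 0 LPS calls lower, 2 nicotine calls lower and 55 genotype calls over all genes (115). Moderation without a trend gave 1 LPS call lower. With the factor as the only term there were 0 LPS calls higher and 1 lower, 520 LPS calls over all genes, 1 nicotine call lower, 2805 nicotine calls over all genes (4842) and 19 genotype calls. Leaving out 1 library gave 0 to 3 LPS calls lower and 803 to 2335 over all genes, 2 to 5 nicotine calls lower, 13 to 171 genotype calls over all genes, 3 to 11 interaction calls above 0, 0 to 3 below 0 and 1035 to 3706 over all genes. Directions turned for the LPS estimates of Insig1 (-0.032) and Srebf2 (-0.11) with that scaling and of Npc2 (-0.10; interaction 0.12) with quantile scaling, and for the Insig1 interaction with 1 library left out (-0.085 to 0.46). The interaction calls of Scd2, Dhcr7 and Fads1 and the nicotine calls of Insig1, Acat2 and Pmvk were kept in all 15 alternatives run for each.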
